A study of Mus musculus with 38 samples.

Results

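The 8 genes described here encode enzymes on the route from acetyl-CoA to squalene: Acat2, Hmgcs1, Mvk, Pmvk, Mvd, Idi1, Fdps and Fdft1. They were chosen by name, as the array annotation spells it, and all 8 were found among 29411 gene names on the array and among the 21625 gene names tested. Their levels were read in brown adipose tissue of C57BL/6J mice weaned at 3 to 4 weeks of age, with 30 animals named per group. The LFC group ate a low fat control diet with 10% of its calories as fat. The HFC group ate a high fat diet with extra sucrose and 60% of its calories as fat. The HF5, HF20 and HF75 groups ate that same high fat diet together with Kal-1, a botanical formulation whose composition is not given in the sources used here, at 5, 20 and 75 µg, so that no Kal-1 group on the control diet was compared. LFC and HFC have 10 arrays each (days 6, 10 and 14 and weeks 0, 3, 6, 9, 12, 15 and 18) and each dose has 6 (weeks 3 to 18). Each group has 1 array per labelled time point, and whether an array holds RNA of 1 mouse or of a pool is not given in the sources used here. The sex of the mice is likewise not given. The time points therefore serve as the replicates of a group, and the spread between them holds any change with time as well as the difference between animals.

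The mevalonate pathway is the source of cholesterol and of the isoprenoids that cells attach to proteins and build into ubiquinone and dolichol. Its genes are known to share control by the SREBP transcription factors, which are cleaved and enter the nucleus when membranes hold little sterol. In brown fat the pathway is active beside a high rate of fatty acid synthesis, which draws on the same cytosolic acetyl-CoA. Acat2, the cytosolic thiolase, joins 2 acetyl-CoA molecules, and Hmgcs1, the cytosolic HMG-CoA synthase, adds the next. Mvk and Pmvk, the mevalonate and phosphomevalonate kinases, phosphorylate mevalonate. Mvd, the decarboxylase, then makes isopentenyl diphosphate and Idi1 isomerises it. Fdps, farnesyl diphosphate synthase, builds the farnesyl chain, and Fdft1, squalene synthase, commits it to sterols.

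RefSeq promoter windows of assembly GRCm38.p6 were matched by symbol for 6 of the 8 members (Acat2, Hmgcs1, Mvk, Pmvk, Mvd and Idi1). The members lie on several chromosomes. Pmvk (chr3:89454541-89469014) and Fdps (chr3:89093588-89101967) are on the same chromosome, as are Hmgcs1 (chr13:119690351-119708260) and Idi1 (chr13:8885606-8892396). Acat2 is at chr17:12943042-12960725, Mvk at chr5:114444264-114460591, Mvd at chr8:122433596-122443422 and Fdft1 at chr14:63145150-63181687. The 250 bases before the annotated start are shown for Pmvk, Mvd and Idi1, the members that were lower in HFC at 9 of 10 time points, and for Hmgcs1, which was not. They are chr3:89454291-89454540 (plus strand, the first of the starts listed for Pmvk), chr8:122443423-122443672 (minus strand), chr13:8885356-8885605 (plus strand) and chr13:119690101-119690350 (plus strand). Each is written 5′ to 3′ along its gene. Capitals mark matches, on either strand, to CCAAT, to CACCCCAC or CACNCCAC (the core of a sterol regulatory element), to GGGCGG (the GC box) and to CACGTG (the E box), where every CACCCCAC is also a CACNCCAC.
Pmvk: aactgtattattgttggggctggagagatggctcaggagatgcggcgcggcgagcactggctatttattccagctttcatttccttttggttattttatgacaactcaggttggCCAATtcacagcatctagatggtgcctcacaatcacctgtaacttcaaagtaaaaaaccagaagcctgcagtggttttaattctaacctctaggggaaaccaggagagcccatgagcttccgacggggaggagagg
Mvd: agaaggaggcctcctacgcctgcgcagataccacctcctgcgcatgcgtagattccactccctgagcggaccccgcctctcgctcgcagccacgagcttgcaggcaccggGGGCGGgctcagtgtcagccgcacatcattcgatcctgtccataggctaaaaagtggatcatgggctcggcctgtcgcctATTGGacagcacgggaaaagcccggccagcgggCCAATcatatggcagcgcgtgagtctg
Idi1: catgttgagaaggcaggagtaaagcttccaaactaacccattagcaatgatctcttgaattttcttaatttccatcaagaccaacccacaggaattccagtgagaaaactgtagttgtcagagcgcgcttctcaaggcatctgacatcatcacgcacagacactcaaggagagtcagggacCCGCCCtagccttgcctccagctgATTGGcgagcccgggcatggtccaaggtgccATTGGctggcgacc
Hmgcs1: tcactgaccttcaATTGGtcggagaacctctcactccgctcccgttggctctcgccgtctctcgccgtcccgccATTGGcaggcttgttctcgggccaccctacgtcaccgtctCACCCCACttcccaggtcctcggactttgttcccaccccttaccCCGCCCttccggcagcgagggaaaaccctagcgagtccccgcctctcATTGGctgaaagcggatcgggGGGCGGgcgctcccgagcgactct

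The CCAAT box, which the factor NF-Y is known to bind, was present in all 4 windows. It occurred 1 time before Pmvk, 2 times before Mvd, 2 times before Idi1, 3 times before Hmgcs1 and 5 times in the window of Mvk, against 0 times before Acat2 and 0 times before the other listed start of Pmvk. Of 32851 RefSeq promoter windows of this length, 33.8% held it. The CACCCCAC core was present 1 time before Hmgcs1 and 1 time before Acat2, and 2.58% of all windows held it. The looser CACNCCAC was found 1 time before Hmgcs1 and 2 times before Acat2, and 5.29% of all windows held it. GGGCGG was found before each of these genes other than Pmvk (32.7% of all windows), and CACGTG before none of them (6.02% of all windows). A match of letters is a description of the sequence and not evidence of binding.

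A level here is the log2 processed signal of the brightest probe of a gene minus the 75th percentile of the same array, so that 0 stands for that percentile and a step of 1 doubles the signal. Levels are set against each other only within a gene. Acat2, Hmgcs1, Pmvk, Idi1 and Fdft1 were well above background on all 38 arrays, Fdps on 37, and Mvk and Mvd on 31, and no member was saturated on any array. Among HF75 arrays, Mvk and Mvd were well above background on 3 of 6. A second probe existed for 5 members. It followed the first across the 38 arrays with Pearson r = 0.995 for Pmvk, 0.849 for Mvk, 0.766 for Hmgcs1 and 0.702 for Idi1, and with r = -0.309 for Fdft1, whose second probe was well above background on 15 arrays. The second probes of Hmgcs1 and Idi1 were dim as well, well above background on 17 and 18 arrays. The Acat2 probe followed the brighter of the probes named Acat3 (r = 0.971), and that Acat3 probe is annotated with the Acat2 transcript as well.

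The arrays differed in brightness, and the members moved with it. The 75th percentile of the signal lay between 625.4 and 1209.1 intensity units on 11 bright arrays and between 35.1 and 429.8 on 27 dim ones. Of the bright arrays 4 were LFC (weeks 0, 3, 9 and 12), 2 HFC (day 10 and week 3), 4 HF20 (weeks 3, 6, 12 and 15) and 1 HF75 (week 3), and 0 were HF5. The members were higher on bright than on dim arrays by a median of 1.36 on the log2 scale, where the median over all genes was -0.30. Fdft1 was 2.32 higher, Fdps 2.11 and Pmvk 1.79, and for each of these 3 no more than 5.21% of all genes differed by more in that direction. Acat2 differed least, by 0.66. Within a group, the median over members of bright minus dim was 1.79 in LFC, 1.04 in HFC and 1.29 in HF20, so the members' median or count in each comparison is also given with the class in the model and, between pairs of groups, at the time points where the compared arrays were of 1 class.

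The tissue label was checked against brown fat markers. Ucp1, the uncoupling protein of brown adipocytes, was well above background on all 38 arrays, with a median level of 6.27, and Cidea, a lipid droplet protein, had a median of 6.45. The HF75 array of week 3 stood apart: it had the lowest Ucp1 (-3.07), Cidea (-1.78) and Cox8b (-2.01) of all 38 arrays. Prdm16, another brown marker, was at its median there (1.67). The macrophage markers Adgre1 (2.64), Mrc1 (2.34) and Cd163 (2.78) were highest on that array, and the other macrophage markers lay above their medians. Hba-a1, an erythroid marker, was lowest there (5.14). The members' medians or counts in comparisons that hold HF75 are therefore given with and without this array. In bulk tissue, fewer cells of a type and less RNA per cell cannot be told apart.

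In HFC against LFC, every member had a fitted change below 0, and the steps from phosphomevalonate to squalene had the largest differences, but none passed the test after adjustment. Pmvk differed by -1.51 ± 0.40 on the log2 scale (SE), Fdps by -1.41 ± 0.44, Fdft1 by -1.15 ± 0.52, Idi1 by -1.08 ± 0.32 and Mvd by -0.83 ± 0.27. The first steps differed less, with Mvk at -0.50 ± 0.29, Hmgcs1 at -0.20 ± 0.30 and Acat2 at -0.15 ± 0.27. The median over the 8 members was -0.95, where that over all genes was 0.05. Adjusted p values from limma lay between 0.652 and 0.833, and 0 of the 21625 genes (0%) passed, with 1474 at an unadjusted p under 0.05. Of the members 5 of 8 (Pmvk, Mvd, Idi1, Fdps and Fdft1) were lower at an unadjusted p under 0.05, where 2.24% of all genes were.

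Pmvk, which phosphorylates phosphomevalonate, had levels from 2.08 through a median of 2.94 to 5.41 in LFC and from 1.33 through 1.87 to 3.12 in HFC. The 4 bright LFC arrays, at 4.78 to 5.41, lay above every HFC array, and the 6 dim LFC arrays, at 2.08 to 3.08, overlapped with HFC. HFC was below LFC at 9 of 10 time points, day 10 being the exception, with differences from -3.60 to 0.19. Idi1, the isomerase, ran from -0.36 through 1.13 to 3.06 in LFC and from -0.22 through 0.32 to 0.72 in HFC. Its HFC levels filled a narrow band (SD 0.27 over 10 arrays) inside the LFC range (SD 1.14). HFC was lower at 9 of 10 time points, week 18 being the exception.

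Mvd, the decarboxylase, had levels from -2.90 through -1.41 to 0.52 in LFC and from -2.86 through -2.39 to -1.31 in HFC. It too was lower in HFC at 9 of 10 time points, week 18 again being the exception, and 1.68% of all genes were lower at 9 or 10 of 10. Fdps, which makes farnesyl diphosphate, ran from -0.87 through 0.48 to 2.73 in LFC and from -1.34 through -0.58 to 0.68 in HFC. It was lower at 8 of 10 time points, with day 10 and week 18 on the other side. Fdft1, which makes squalene, ran from -0.98 to 2.84 in LFC (mean 1.08, SD 1.53) and from -1.57 to 1.73 in HFC (mean -0.07, SD 1.20), and was lower at 7 of 10. The LFC and HFC ranges of all 5 genes overlapped.

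The enzymes at the head of the pathway differed less between the diets. Hmgcs1 ran from 1.74 through 3.28 to 4.89 in LFC and from 2.38 through 2.63 to 4.74 in HFC, and was lower in HFC at 6 of 10 time points. Acat2 ran from -0.74 through -0.15 to 1.34 in LFC and from -1.23 through 0.25 to 1.02 in HFC, and was lower at 5 of 10. The 95% intervals of the difference were -0.73 to 0.43 for Acat2 and -0.87 to 0.46 for Hmgcs1. Mvk, the first kinase, ran from -3.71 through -1.70 to -0.74 in LFC and from -3.25 through -2.25 to -1.62 in HFC, and was lower at 7 of 10.

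**Figure D1:**
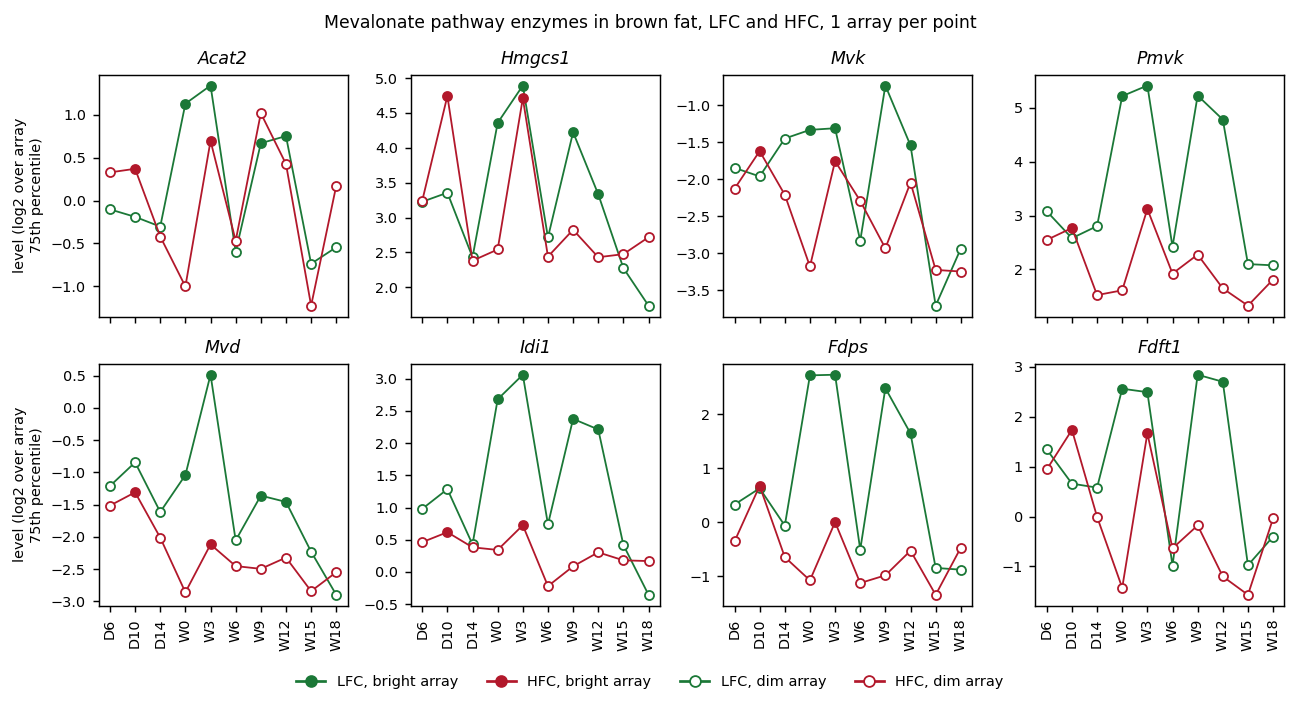
Level of each member (log2 signal over the 75th percentile of the array, vertical axis) at the 10 labelled time points (horizontal axis) in LFC (green) and HFC (red), 1 array per point, filled where the array was bright. The high Pmvk, Idi1, Fdps and Fdft1 levels of LFC at weeks 0, 3, 9 and 12 are the 4 bright LFC arrays, and the HFC line of Idi1 stays between -0.22 and 0.72.

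The time points did not weigh equally. Where LFC was bright, the median over members was -2.24 (week 0), -1.56 (week 3), -2.24 (week 9) and -1.41 (week 12), and it lay between -0.49 and 0.39 at the other 6 time points. At week 9 the LFC array was also scanned on another day than the HFC array, and the HFC intensities were rounded to 3 digits. The part of this in the week 9 difference was not tested. Week 3 was the time point at which both arrays were bright. There Fdps differed by -2.73, Mvd by -2.63, Idi1 by -2.34 and Pmvk by -2.29, while Fdft1 differed by -0.82, Acat2 by -0.65, Mvk by -0.45 and Hmgcs1 by -0.18. Where both arrays were dim (days 6 and 14 and weeks 6, 15 and 18), Pmvk was lower in HFC at each time point, by -1.28 to -0.26. Fdft1 at those 5 time points lay between -0.59 and 0.36.

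After brightness class was added as a covariate, the members had a median of -0.67 and Pmvk differed by -1.13 ± 0.22 (adjusted p = 0.286), Fdps by -1.04 ± 0.31, Idi1 by -0.87 ± 0.28, Mvd by -0.73 ± 0.27 and Fdft1 by -0.61 ± 0.23. Hmgcs1 then had the opposite sign (0.08). Over the 6 time points of 1 class the median was -0.44, with Pmvk at -0.94 ± 0.28, Fdps at -0.78 ± 0.37, Mvd at -0.67 ± 0.37, Idi1 at -0.60 ± 0.36 and Fdft1 at -0.28 ± 0.22. There 1 member was at an unadjusted p under 0.05, and the share of all genes is not given here.

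**Figure D2:**
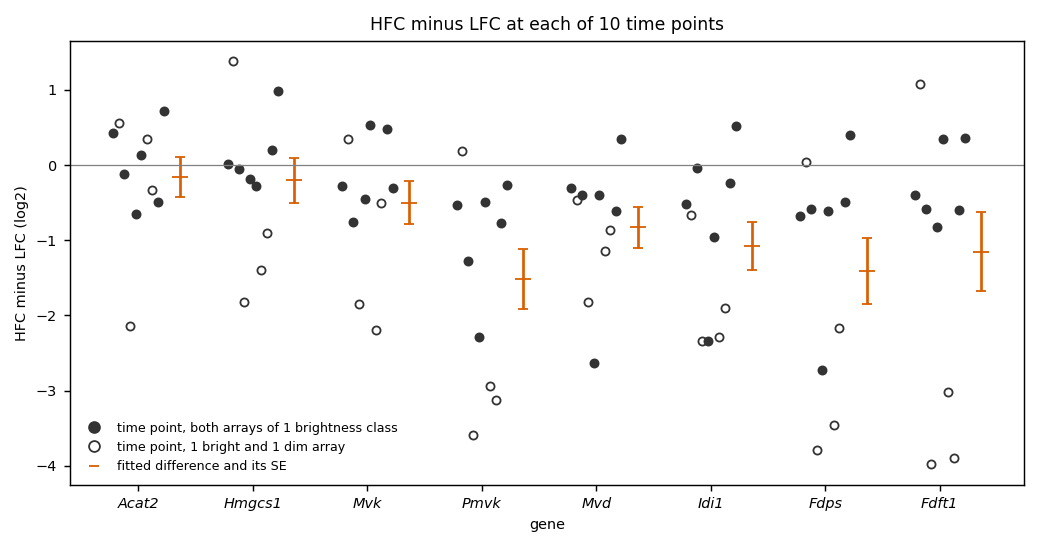
HFC minus LFC (log2, vertical axis) of each member at the 10 time points, filled where both arrays were of 1 brightness class, with the fitted difference and its SE in orange. Pmvk, Mvd and Idi1 lie below 0 at 9 of 10 time points, and the fitted differences of Acat2 and Hmgcs1 lie within 1 SE of 0.

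Markers of other cells moved beside these differences. All 9 lymphocyte markers were higher in HFC, with a median of 1.09 and 6 at an unadjusted p under 0.05. Of all 21625 genes, 989 were higher at that level. The log2 mean of the lymphocyte signals ran from -4.80 to -2.19 in LFC and from -3.98 to -1.15 in HFC. The median over 10 brown adipocyte markers was 0.26, with log2 mean signals of 3.71 to 5.38 in LFC and 3.97 to 6.68 in HFC, with Ucp1 at 1.17 ± 0.33 and Elovl3, a fatty acid elongase, at -2.98 ± 0.83. All 6 erythroid markers were higher (median 0.90), the 7 macrophage and 10 skeletal muscle markers had medians of 0.00 and 0.01, and 3 of 6 white adipocyte markers could be tested. No marker list had a gene that passed after adjustment. Their part in the members' differences was not tested.

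The rest of the pathway was followed through lists of named genes. All 3 genes for the supply of cytosolic acetyl-CoA had lower RNA signal in HFC, each at an unadjusted p under 0.05. Acss2, acetyl-CoA synthetase, differed by -2.91 ± 0.65, Acly, ATP citrate lyase, by -2.04 ± 0.43 and Slc25a1, the citrate carrier, by -1.66 ± 0.55. The genes of all 11 enzymes after squalene were lower, with a median of -1.05 and 8 of 11 at an unadjusted p under 0.05. Of all genes, 2.24% were lower at that level. Lss, lanosterol synthase, differed by -1.72 ± 0.57, Sqle, squalene epoxidase, by -1.53 ± 0.39, Cyp51, the lanosterol demethylase, by -1.45 ± 0.37 and Msmo1, the methylsterol oxidase, by -0.84 ± 0.24. None of these passed after adjustment (adjusted p = 0.652 for each, limma). Bright arrays numbered 4 in LFC and 2 in HFC, and values of these lists with the brightness class in the model are not given here for this comparison.

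Other branches differed less. Among 14 genes of the branches from farnesyl diphosphate outside sterol synthesis, such as those of the prenyltransferases, 13 were lower with a median of -0.21. Icmt, which methylates prenylated proteins, was the one at an unadjusted p under 0.05 (-0.44 ± 0.18). Of 7 genes that process SREBP, 6 were lower with a median of -0.36, and Insig1, which retains the SREBP complex in the endoplasmic reticulum, differed by -1.13 ± 0.45. Srebf2, the SREBP isoform best known for sterol genes, differed by -0.16 ± 0.26 and Srebf1 by -0.99 ± 0.49.

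**Figure D3:**
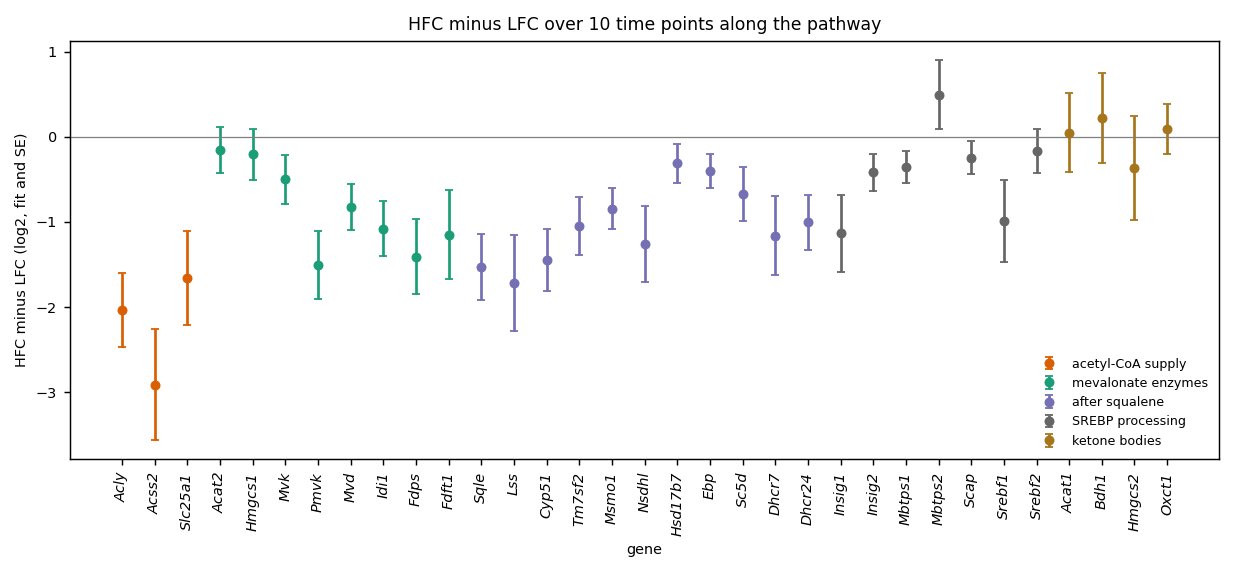
Fitted HFC minus LFC over 10 time points (log2, with SE) for genes in pathway order, coloured by list. Acss2 (-2.91) and Acly (-2.04) lie lowest, all members and all genes after squalene lie below 0, and none passed after adjustment.

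Over weeks 3 to 18, where all 5 groups were sampled, HFC against LFC had a median over members of -1.04. Pmvk was lower at 6 of 6 time points, as were 4.38% of all genes. Pmvk, Mvd, Idi1 and Fdps, 4 of 8, were lower at an unadjusted p under 0.05, with a background of 4.07%. In this fit 2 genes of all (0.00925%) passed after adjustment, and 0 members did. The median was -0.51 with the class as covariate and -0.47 at the 4 time points of 1 class, with 5 and 6 members below 0.

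The lowest dose differed little from the high fat diet alone. Over weeks 3 to 18 the members in HF5 against HFC had a median of -0.05 (all genes 0.02), and 0 of 8 were at an unadjusted p under 0.05, where 5.51% of all genes were. All dose comparisons with HFC share the same HFC arrays. The 95% intervals were wide, from -1.04 to 0.83 for Acat2, -0.81 to 1.33 for Pmvk, -0.68 to 0.93 for Idi1 and -1.85 to 1.22 for Fdft1. Fdft1 in HF5 lay between -1.57 and -0.49 at 5 of the 6 time points and at 1.32 at week 18. All HF5 arrays were dim, as were the HFC arrays at 5 of the 6 weeks. The median was 0.17 with the class as covariate and 0.215 at those 5 weeks.

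In HF20 against HFC all 8 members had a change above 0, with a median of 0.90 where that over all genes was -0.18, but none passed after adjustment. Fdft1 differed by 1.77 ± 0.74, Pmvk by 1.36 ± 0.52, Fdps by 1.30 ± 0.54 and Idi1 by 0.85 ± 0.39, and these 4 were at an unadjusted p under 0.05, as were 13.4% of all genes in that direction. Adjusted p values lay between 0.122 and 0.348 (limma), and 0% of all genes passed. Mvk (0.95 ± 0.47), Hmgcs1 (0.84 ± 0.44), Mvd (0.72 ± 0.37) and Acat2 (0.58 ± 0.45) were not at that level.

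Fdft1 in HF20 had levels of 1.90, 1.99, -0.03, 1.98, 2.72 and 0.10 at weeks 3, 6, 9, 12, 15 and 18. In HFC it had 1.66, -0.64, -0.18, -1.20, -1.57 and -0.04. HF20 was higher at 6 of 6 time points, as were 3.35% of all genes, with differences of 0.13 to 0.24 at weeks 3, 9 and 18 and of 2.63 to 4.29 at weeks 6, 12 and 15. Mvk, Pmvk, Mvd, Idi1 and Fdps were higher at 5 of 6, so that 6 of 8 members were higher at 5 or 6 time points, with a background of 16.5%.

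Brightness followed that same division. Weeks 6, 12 and 15 paired a bright HF20 array with a dim HFC one, and the median over members was 1.78, 1.73 and 2.14 there. At weeks 3, 9 and 18 both arrays were of 1 class, and the median was 0.00, 0.52 and -0.04. Without the HF20 array of week 9, 2 members passed, and the share of all genes that passed in that fit is not given here. With class as a covariate the members had a median of 0.23 over all 6 time points and 0 members were at an unadjusted p under 0.05. Pmvk then differed by 0.37 ± 0.40 and Fdft1 by 0.44 ± 0.61. Over the 3 time points of 1 class fitted together the median was 0.18.

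Markers of other cells differed between HF20 and HFC as well, though no marker passed after adjustment. All 6 erythroid markers were lower in HF20 (median -1.54, 3 at an unadjusted p under 0.05). Of all 21625 genes, 4188 were lower at that level and 13.4% were higher. The log2 mean of the erythroid signals ran from 4.41 through 4.78 to 9.01 in HF20 and from 4.76 through 6.80 to 8.92 over the 10 HFC arrays. Of 9 lymphocyte markers 7 were lower (median -0.75, 3 at an unadjusted p under 0.05), with log2 mean signals of -4.45 to -1.20 in HF20 and -3.98 to -1.15 in HFC. All 10 skeletal muscle markers were higher (median 1.67, 1 at an unadjusted p under 0.05), with log2 mean signals of -3.75 to 5.15 and -3.12 to 5.31. Their part in the members' differences was not tested.

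At the highest dose, HF75 against HFC, the median over members was -0.44 and 0 of 8 passed, as did 0% of all genes. Acat2 was the 1 member lower at an unadjusted p under 0.05 (-0.96 ± 0.45), with a background of 4.31%. Its levels in HF75 were -2.77, -0.80, -0.07, -0.29, -0.67 and -0.54 at weeks 3, 6, 9, 12, 15 and 18, against 0.70, -0.47, 1.02, 0.43, -1.23 and 0.17 in HFC. Without the week 3 array of HF75 the difference was -0.54 ± 0.41, 0 members were at an unadjusted p under 0.05 and the median over members was -0.41. Pmvk (0.01 ± 0.52) and Idi1 (0.21 ± 0.39) were on the other side of 0 or at it. The compared arrays were of 1 class at all 6 weeks. The class as covariate therefore could not change these fitted differences, and the median in that fit was -0.44. In that fit 3 members were lower at an unadjusted p under 0.05, and the share of all genes is not given here.

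**Figure D4:**
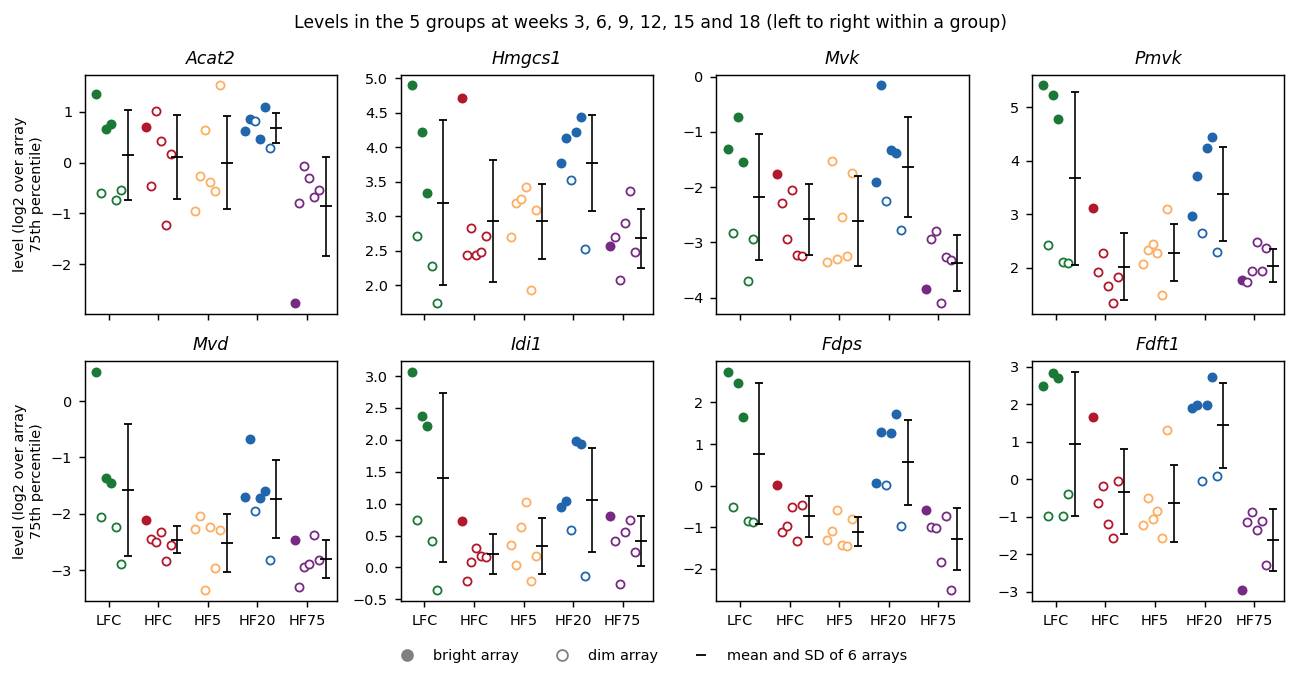
Level of each member (log2 signal over the 75th percentile of the array, vertical axis) in the 5 groups at weeks 3, 6, 9, 12, 15 and 18 from left to right, filled where the array was bright, with mean and SD over 6 arrays in black. The HF20 means lie above the HFC and HF75 means for all 8 members, and Acat2 and Fdft1 are lowest on the HF75 array of week 3.

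The 3 doses were set against each other after the data had been seen, and HF75 against HF20 was the comparison in which members passed. Fdft1 fell by 3.05 on the log2 scale (SE 0.74, adjusted p = 0.0146). Fdps (-1.85 ± 0.54, adjusted p = 0.0221), Mvk (-1.74 ± 0.47, adjusted p = 0.0179), Acat2 (-1.54 ± 0.45, adjusted p = 0.0222) and Mvd (-1.06 ± 0.37, adjusted p = 0.0391) fell as well (limma). Under normexp background correction Mvd had the opposite sign (0.25), and Mvd and Mvk were well above background on 3 of the 6 HF75 arrays. Pmvk (-1.35 ± 0.52, adjusted p = 0.0578), Hmgcs1 (-1.09 ± 0.44, adjusted p = 0.0652) and Idi1 (-0.64 ± 0.39, adjusted p = 0.208) did not pass. The median over members was -1.44, where that over all genes was 0.27. The share of all genes that passed was large, 25.9%, with 13% lower, so 5 of 8 members that fell are read against that background. At an unadjusted p under 0.05, 7 of 8 members were lower, as were 18.6% of all genes.

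Fdft1, squalene synthase, had levels of -2.95, -1.13, -0.86, -1.34, -1.10 and -2.29 in HF75 at weeks 3 to 18, all below every HF20 level. HF75 was lower than HF20 at 6 of 6 time points for Acat2, Hmgcs1, Mvk, Fdps and Fdft1, and for 12% of all genes. Fdps had levels of -0.60, -0.995, -1.03, -1.84, -0.73 and -2.52 in HF75 and of 0.07, 1.29, 0.01, 1.26, 1.71 and -0.97 in HF20, and these ranges overlapped. Mvk had -3.84, -2.94, -2.80, -4.11, -3.27 and -3.32 in HF75 and -1.91, -0.16, -2.26, -1.32, -1.38 and -2.77 in HF20. The highest Mvk level in HF75 and the lowest in HF20 lay next to each other. Hmgcs1 differed by -0.04 at week 18 and by -1.08 to -1.45 at the 5 other weeks.

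These calls depended on the brightness of the arrays and on single arrays. With class as a covariate 0 members and 0 genes passed, the members had a median of -0.73 and Fdft1 differed by -1.73 ± 0.61. At weeks 3, 9 and 18, where both arrays were of 1 class, Fdft1 differed by -4.85, -0.83 and -2.39, Acat2 by -3.39, -0.88 and -0.82, and Idi1 by -0.13, -0.85 and 0.38. At those 3 weeks fitted together the median was -0.95 and 0 members passed. Without the week 3 array of HF75 the median was -1.15, 9.08% of all genes passed and 3 members did: Fdft1 (-2.62 ± 0.75, adjusted p = 0.0440), Fdps (-1.88 ± 0.59, adjusted p = 0.0491) and Mvk (-1.62 ± 0.50, adjusted p = 0.0493). The count was 0 without week 6, 12 or 15, without the HF20 array of week 6 or of week 15, and under normexp background correction. It was also 0 in the deposited table of log2 ratios, which was used without week 15. It was 3 without the HF20 or the HF75 array of week 12, and the share of all genes that passed in those fits is not given here.

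**Figure D5:**
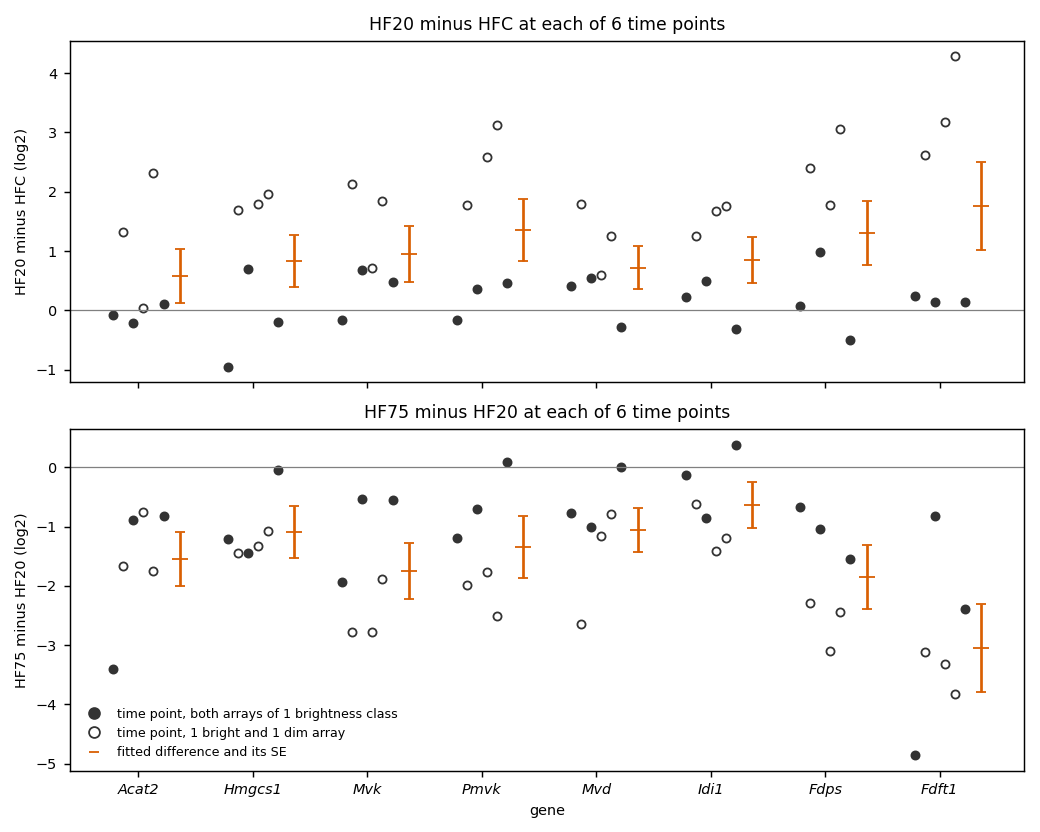
HF20 minus HFC (upper panel) and HF75 minus HF20 (lower panel) of each member at 6 time points (log2, vertical axis), filled where both arrays were of 1 brightness class, with the fitted difference and its SE in orange. Most filled points of the upper panel lie near 0 while the open points reach 4.29, and in the lower panel Fdft1 lies between -4.85 and -0.83.

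Other genes around the pathway also passed in HF75 against HF20, where 25.9% of all genes did and 13% were lower. All 3 acetyl-CoA genes fell, namely Acss2 (-3.22 ± 0.86), Slc25a1 (-2.99 ± 0.80) and Acly (-2.18 ± 0.57). After squalene, 3 of 11 fell, namely Lss (-2.98 ± 0.69), Nsdhl, a sterol dehydrogenase (-1.73 ± 0.54), and Dhcr7, the last reductase of cholesterol synthesis (-1.56 ± 0.57). Of the 14 genes of the other branches from farnesyl diphosphate 7 fell. Pdss2, a subunit of the enzyme that makes the ubiquinone side chain, fell most (-2.58 ± 0.48). It was followed by Dolk (-1.98 ± 0.61), Pdss1 (-1.39 ± 0.44), Coq2 (-1.29 ± 0.43), Rabggtb (-1.10 ± 0.31), Fnta (-1.05 ± 0.34) and Ggps1 (-0.75 ± 0.28). Of the SREBP genes, Insig1 (-2.16 ± 0.66) and Srebf1 (-2.06 ± 0.59) fell, while Mbtps2, a protease that cleaves SREBP, rose by 1.90 (SE 0.46). Of the ketone body genes, Acat1, the mitochondrial thiolase (-2.18 ± 0.61), and Oxct1 (-1.45 ± 0.52) fell. Without the week 3 array of HF75 all 3 acetyl-CoA genes, Lss, Pdss2 and Mbtps2 were the genes of these lists that passed. With the class as covariate none did.

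Brown adipocyte markers moved with this comparison. Of 10, 9 were lower in HF75 than in HF20 (median -2.25) and 4 fell, namely Ppargc1a (-3.25 ± 0.86), Dio2 (-3.12 ± 0.98), Lhx8 (-2.93 ± 0.84) and Zic1 (-2.48 ± 0.83). Each of these 4 genes had its lowest level of all 38 arrays on the HF75 array of week 3. Without that array 9 of 10 were lower with a median of -0.98, and 0 passed. The log2 mean of the brown marker signals ran from -1.05 (week 3) through a median of 4.59 to 5.50 in HF75 and from 5.01 to 6.73 in HF20, and that of the 10 skeletal muscle markers from -1.42 to 7.17 and from -3.75 to 5.15. The leptin gene Lep (-3.65 ± 0.85), Retn (-2.22 ± 0.77) and the macrophage gene Lyz2 (-1.37 ± 0.43) fell, while Hoxc9 rose by 2.65 (SE 0.92). Without the week 3 array Lep, Retn and Lyz2 passed and Hoxc9 (1.65 ± 0.77) did not. The part of these cells in the members' fall was not tested.

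HF20 against HF5 had a median over members of 0.91, with 5 of 8 (Fdps, Fdft1, Mvd, Pmvk and Mvk) higher at an unadjusted p under 0.05 and a background of 13.7%. Fdft1 differed by 2.09 ± 0.74 (adjusted p = 0.0743) and Fdps by 1.67 ± 0.54 (adjusted p = 0.0671), and 0% of all genes passed. At the 2 time points where both arrays were of 1 class, weeks 9 and 18, the median over members was -0.12, and with the class as covariate it was 0.08. HF75 against HF5 had a median of -0.26 with 0 members at an unadjusted p under 0.05, where 2.34% of all genes were. The median was -0.21 without the week 3 array of HF75, -0.33 at the 5 time points of 1 class and -0.55 with the class as covariate. In that last fit 3 members were lower at an unadjusted p under 0.05, and the share of all genes is not given here.

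Each dose was also set against the control diet. These comparisons share the same LFC arrays, so their values are given side by side only. Over weeks 3 to 18, 3 of 6 LFC arrays were bright, against 0 of 6 in HF5, 4 of 6 in HF20 and 1 of 6 in HF75. At week 9 the LFC array was scanned on another day than the arrays of all doses, and at week 6 on another day than those of HF20 and HF75. In HF5 against LFC all 8 members had a change below 0 (median -1.01), with 5 of 8 lower at an unadjusted p under 0.05 (background 4%) and Fdps the largest at -1.88 ± 0.54. By time point the median was -2.75, -2.28 and -1.16 at weeks 3, 9 and 12, where LFC was bright, and 0.17, -0.60 and 1.11 at weeks 6, 15 and 18, where both arrays were dim. It was 0.30 over the time points of 1 class and -0.33 with the class as covariate, where 0 members were at an unadjusted p under 0.05. In HF20 against LFC 4 members were lower and 4 higher, with a median of 0.17, Fdft1 at 0.50 ± 0.74 and Pmvk at -0.29 ± 0.52. The median was -1.62, -0.28 and 0.21 at weeks 3, 12 and 18, where both arrays were of 1 class, -0.49 over those weeks and -0.12 with the class as covariate. In HF75 against LFC all 8 were below 0 (median -1.21), and 7 of 8, all but Hmgcs1, were lower at an unadjusted p under 0.05 (background 9.66%). Without the week 3 array of HF75 6 of 8 were, with a median of -1.11. The median was -3.16, -0.27, 0.09 and 0.04 at weeks 3, 6, 15 and 18, where both arrays were of 1 class. It was -1.06 over those weeks and -0.86 with the class as covariate, where 4 of 8 were lower at an unadjusted p under 0.05. The 9.66% is the share in the main fit, and the shares in the other fits are not given here. In the main fit Fdft1 differed by -2.56 ± 0.74 and Fdps by -2.06 ± 0.54 (adjusted p = 0.217 for both, limma). Without the week 3 array of HF75 they differed by -2.12 ± 0.75 and -2.09 ± 0.59. Acat2 went from -1.01 ± 0.45 to -0.58 ± 0.41 without that array. No member passed in these comparisons, in which 0.00925%, 0% and 0.0277% of all genes did.

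Over the 5 groups together, the moderated F test had 7 of 8 members at an unadjusted p under 0.05, all but Hmgcs1, with a background of 32.2%. After adjustment 0 members and 0.00462% of all genes passed. Without the week 3 array of HF75, 6 of 8 members were at an unadjusted p under 0.05, and with the class as covariate 3 of 8 were. The 32.2% is the share in the main fit, and the shares in the other fits are not given here. In the main fit adjusted p values ran from 0.0953 for Fdft1 and Fdps to 0.282 for Hmgcs1. The difference between the highest and the lowest fitted group was 3.05 for Fdft1, 2.06 for Fdps, 1.74 for Mvk, 1.65 for Pmvk, 1.54 for Acat2, 1.22 for Mvd, 1.20 for Idi1 and 1.09 for Hmgcs1.

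Across the time on diet, the members in LFC and HFC had slopes below 0 for all 8, with a median of -0.06 per week where that over all genes was 0.00. Different time points were scanned on different days, and the mice aged with their time on diet. In these slopes, time on diet therefore cannot be told apart from scan day or age. The median slope was -0.03 under normexp background correction, -0.02 with the log2 75th percentile as covariate, -0.04 with the brightness class as covariate and -0.06 at time points of 1 class. Mvd (-0.06 ± 0.02 per week, adjusted p = 0.0942), Mvk (-0.06 ± 0.02, adjusted p = 0.141) and Hmgcs1 (-0.06 ± 0.03, adjusted p = 0.229) were lower at an unadjusted p under 0.05, with a background of 6.52%. After adjustment 0 members and 1.41% of all genes passed. In the same fit Cyp51 fell by 0.12 per week (SE 0.03, adjusted p = 0.0425) and Srebf2 fell by 0.08 per week (SE 0.02, adjusted p = 0.0477). The diet difference had no slope that passed: for the product of diet and day, 0 of 8 members were at an unadjusted p under 0.05, where 15.2% of all genes were, and the median was 0.02 per week, 0.05 with the class as covariate and 0.04 at time points of 1 class.

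The members varied together. Over the 38 arrays, the 28 pairs of members had Pearson r between 0.432 (Acat2 and Idi1) and 0.890 (Pmvk and Idi1), with a median of 0.754. Among the 27 dim arrays r ran from -0.02 to 0.733 with a median of 0.452, the lowest again for Acat2 and Idi1 and the highest for Fdps and Fdft1. Among the 11 bright arrays it ran from 0.243 for Hmgcs1 and Idi1 to 0.97 for Acat2 and Fdft1, with a median of 0.656. These arrays share brightness, groups and time points, so the values describe the arrays and carry no test.

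The 10 genes outside the members with the pattern most like theirs, by Pearson r with the mean of the members' z scores over 38 arrays, were Ppp1r3b (0.955), Pgd (0.955), Pcyt2 (0.950), LOC676827 (0.941), Tlcd1 (0.941), Acss2 (0.939), Acaca (0.939), Gm3571 (0.934), Aacs (0.933) and Rap1gap (0.933). Pgd is an enzyme of the pentose phosphate pathway, Acaca makes malonyl-CoA for fatty acid synthesis, and Aacs activates acetoacetate in the cytosol. The median r over all genes ranked was -0.18. Among the 27 dim arrays Pgd (0.847), Ppp1r3b (0.845), Gm3571 (0.831) and LOC676827 (0.825) again led, where the median over all genes was 0.03. Of the enzymes after squalene, Dhcr7 (0.921) and Lss (0.907) had the highest r over 38 arrays, and Ebp (0.460) the lowest.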

How the data were processed

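Total RNA of brown adipose tissue was labelled with Cy3 and hybridised to 1-colour Agilent arrays (38 arrays on 32 slides, scanned on 12 days). Per the file headers, the authors extracted processed signal intensities with Feature Extraction 10.5.1.1. They also deposited a table of log2 ratios of each array to the LFC array of its time point, which served here as an alternative. Of that table, the week 15 columns could not be matched to the scanner files by probe name and were left out, and 4 arrays of week 9 were deposited with intensities rounded to 3 digits.

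From the intensities, log2 processed signal minus the 75th percentile of the array was taken without control spots and flagged outliers, and the probe with the highest mean stood for a gene. Genes well above background on at least 6 arrays were tested (21625 of 29411 names). Models were fitted with limma 3.58.1 in R 4.3.3, with the time point as a block and Benjamini-Hochberg adjustment over all genes tested, at a threshold of 0.05: LFC and HFC over 10 time points, and 5 groups over weeks 3 to 18. Week 0 was day 14, and 7 days were added per week. Arrays of 1 time point were scanned on 1 day, except at weeks 6 and 9. At week 6 the HF20 and HF75 arrays, and at week 9 the LFC array, were scanned on another day than the rest. The 6 slides with more than 1 array each held arrays of 1 time point. Whether the arrays of 1 time point share anything else is not given in the sources used here. Over 64 pairs of arrays of 1 time point, deviations from the group means correlated between -0.562 and 0.725 (median 0.19), with 38 pairs above 0.1. The number of arrays limits the precision. With the time point as a block, p values measure how much the group differences vary over time points. The trend over days was fitted without that block, and its p values measure the spread between arrays around the trend. In simulated data for HFC against LFC over 10 time points, 86.7% of genes changed by 3 on the log2 scale were recovered. Changes of the size fitted for the members, of which Pmvk had the largest (-1.51), were not simulated. Nor were bright and dim arrays, so the recovery at the members' sizes is not known.

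The members and the lists of other genes were chosen with earlier results of these data known, as was the boundary of 600 intensity units between bright and dim arrays, and the dose against dose comparisons were added after the data were seen. All members are named. From the other lists, genes past adjusted p in a comparison are named, with those of smallest p where none passed, and a few chosen after their values were seen (Lss, Srebf1, Srebf2, Ebp, Elovl3 and Ucp1 in HFC against LFC). A single gene is not reported here.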

Additional observations from a re-analysis of the deposited data

Results flagged for a closer look

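Of 40 groups of levels checked (8 members in 5 groups), 2 held an array far from the others, and chance flags about 1 in 20 groups. Fdft1 in HF5 was at 1.32 at week 18, where the next highest of the 6 levels was -0.495, a gap of 0.629 of the whole range. Acat2 in HF75 was at -2.77 at week 3, where the next lowest level was -0.803, a gap of 0.729 of the whole range. The latter is the array that also had the lowest Ucp1 (-3.07) and Cidea (-1.78) of all 38 arrays, and the part of its makeup in the Acat2 level was not tested.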

How the results depend on the processing

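Counts here are members past adjusted p 0.05, medians are over the 8 members, and causes were not tested. The shares of all genes that passed in the same fits are not given in this section, so the counts stand without that background. In HF75 against HF20 the count of 5 went to 0 with normexp, the deposited table (used without week 15, whose omission alone also gave 0), the log2 75th percentile or the brightness class as covariate, and time points of 1 class. It was 5 with slide or scan day as a random block. It ran from 0 to 7 when 1 array or time point was left out, and the median was -0.733 with the class as covariate. Without the replicate block (the time point as pairing) the count was 4, and no count passed from 0 to above 0 or the reverse in any comparison in which that fit was run. The HFC against LFC median of -0.953 could not change in that fit, as each time point held 1 array of each diet. The count of 0 in HF20 against HFC ran from 0 to 2 over left-out arrays or time points, and that over the 5 groups from 0 to 4, with 3 under a slide block and a median range of 0.815 under normexp with quantile normalization. In HF20 against HF5 it was 2 with probes well above background on every array, 3 with a slide block, 1 with array weights and 0 to 2 over left-out arrays or time points, and the median was -0.116 at time points of 1 class. For the trend over days it was 2 with quantile normalization, 1 with all 38 arrays and 2 with array weights, and the median slope was -0.0281 with normexp and -0.0174 with the 75th percentile as covariate. With that covariate the median of the product of diet and day was 0.0724.

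Signs turned as follows. In HFC against LFC, Acat2 was 0.00477 at time points of 1 class and ran from -0.249 to 0.0683 over left-out time points (0.0683 without week 0), and Hmgcs1 was 0.129 with the 75th percentile, 0.0788 with the class and 0.115 at time points of 1 class. In HF20 against HFC, Acat2 was -0.0584 and Hmgcs1 -0.144 at time points of 1 class, and Mvk was -0.0897 and Mvd -0.224 with normexp. In HF75 against HF20, Mvd was 0.254 with normexp and Idi1 0.0012 with the class. The dim second probe of Fdft1 gave 0.0614 in HFC against LFC, -0.128 in HF20 against HFC, 0.464 in HF75 against LFC and 0.39 in HF75 against HF20. Of the other alternative values for medians and counts, 1258 stayed within a set margin of the main value. That rule did not check the sign, and its margin was wide enough for some of those medians to change side. The 1258 is therefore no measure of how stable the medians were. At time points of 1 class, HF5 against LFC went from -1.01 to 0.299 and HF20 against LFC from 0.169 to -0.49. The deposited table and the fit without the block were not run for the trend, time points of 1 class not for the 5 groups, nor the methods' t-test for the trend, the product and the 5 groups.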
